A study of Homo sapiens with 16 samples.

Results

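The baseline transcriptome of MDA-MB-231 cells was described from the 4 RNA sequencing libraries of cells treated with the solvent DMSO alone, out of 16 libraries in the series. MDA-MB-231 is an established human breast cancer line, grown from a pleural effusion and kept in these experiments in DMEM with fetal bovine serum. The other libraries came from cells given afatinib, paclitaxel or both drugs, and no comparison with them is made here. All 4 libraries carry the treatment label DMSO and the replicate numbers 1 to 4. The labels give neither the DMSO dose nor the exposure time, nor whether each replicate was a culture of its own. The p-values below reflect only how far these 4 samples scatter, and that scatter may be technical. As a model the cells are a single line in monoculture, with no stroma, vessels or immune cells around it.

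MDA-MB-231 is called triple-negative because the estrogen receptor, the progesterone receptor and an amplified ERBB2 gene, the 3 features that guide treatment of other breast cancers, are missing by clinical criteria. Breast tumour lines of this kind are often grouped as mesenchymal or claudin-low: cells that have lost the adhesion programme of an epithelium, built on E-cadherin and claudins, and instead carry vimentin, a spindle shape and a motile actin cytoskeleton. Which receptors, lineage factors and secreted products such cells transcribe at rest is the background against which any drug response is read.

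Counts summed to 47155036 and 39667328 in replicates 3 and 4 and to 43750866 and 44287560 in replicates 1 and 2. Levels of a gene between libraries are given as CPM, the count scaled to a common library total, and levels between genes as CPM per kilobase of the gene's deposited exon length. Of the 37864 genes in the table, 11044 (29.2%) were expressed, meaning at least 1 CPM per kilobase in all 4 libraries, 6382 (16.9%) had 0 counts in all 4, and 20438 (54.0%) lay between. Among the 17221 protein-coding genes 9762 (56.7%) were expressed, with a median of 2.31 CPM per kilobase over all of them and of 8.40 over the expressed ones. A count of 0 allows a level of up to 0.0636 to 0.0756 CPM, the worth of 3 counts in the deepest and the shallowest library, and this limit covers counting error only.

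The 4 libraries fell into pairs with the labelled RNA concentration, 292.1 and 330 ng/µl for replicates 3 and 4 and 1050.5 and 1290.9 ng/µl for replicates 1 and 2. Levels of the expressed protein-coding genes correlated across genes by Spearman's rho of 0.992 between replicates 3 and 4, by 0.995 between replicates 1 and 2, and by 0.958 to 0.980 between the pairs (genes are not independent replicates). Of 17158 genes tested with edgeR, 34.2% differed between the pairs at an adjusted p under 0.05 and are called different here, 18.8% higher and 15.4% lower in replicates 3 and 4. These percentages are the background for every count of list members below. Leaving out replicate 1 or replicate 2 lowered the number called from 5869 to 3630 and 3856, and without replicate 3 or 4 it was 6427 and 4073. RNA concentration and anything else that differed between the pairs cannot be told apart, so levels are given per library.

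Counts were spread over many genes. The 10 most abundant genes held 5.27 and 5.57% of the counts in replicates 3 and 4, against 4.52 and 4.37% in replicates 1 and 2, with a mean of 4.93 ± 0.579% (SD, n = 4). The 100 most abundant held 18.5 ± 1.25%, and the 1000 most abundant 51.8 ± 1.42%. Protein-coding genes, those of the mitochondrion included, took 98.2 to 98.3% of the counts. Of them 18 had a mean level of at least 1000 CPM per kilobase, 358 of at least 100 and 4295 of at least 10.

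**Figure D1:**
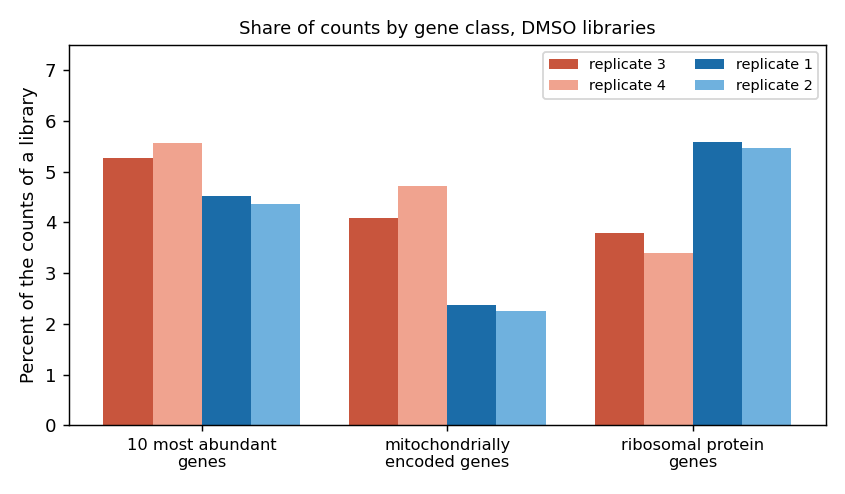
Percent of the counts of each DMSO library (vertical axis, bars from 0) held by groups of genes. The groups are the 10 most abundant genes, the 37 mitochondrially encoded genes and the 98 genes matched by a ribosomal protein symbol. Replicates 3 and 4 stand left of replicates 1 and 2. Mitochondrially encoded genes held 4.09 and 4.72% in replicates 3 and 4 against 2.38 and 2.26% in replicates 1 and 2, and ribosomal protein genes 3.79 and 3.39% against 5.58 and 5.47%.

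Of the 18 protein-coding genes at 1000 CPM per kilobase or more, 11 are encoded by the mitochondrion and are described further on. The most abundant nuclear genes included those of the actin cytoskeleton, iron storage, glycolysis and protein synthesis. TMSB10 on chr2:84905625-84906675 (GRCh38), which encodes the actin-monomer-binding thymosin beta 10, was the highest protein-coding nuclear gene, with 3221 and 2779 CPM per kilobase in replicates 3 and 4, and 4869 and 5118 in replicates 1 and 2. Both of the libraries with less concentrated RNA were thus the lower ones, and the pairs did not overlap (log2 difference -0.66 ± 0.11 (SE), edgeR adjusted p = 0.000281). ACTG1 and ACTB, the cytoplasmic actins, averaged 1812 ± 263 and 1785 ± 254 CPM per kilobase (SD, n = 4), and FTL, the ferritin light chain that stores iron, 1761 ± 722. FTL had the largest log2 difference of the 25 most abundant nuclear genes in either direction, with 1314 and 985 CPM per kilobase in replicates 3 and 4, and 2288 and 2456 in replicates 1 and 2 (log2 difference -0.97 ± 0.12, edgeR adjusted p = 4.16e-05). Next came the elongation factor EEF1A1 (1117), the glycolytic enzyme GAPDH (1096) and CYR61, also called CCN1, a secreted matricellular protein and standard target of the YAP coactivator (1052). CYR61 had 1049.6 and 1400.5 CPM per kilobase in replicates 3 and 4, and 1007 and 751 in replicates 1 and 2, highest in replicate 4 and lowest in replicate 2.

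Below these stood the actin-binding PFN1 (798 CPM per kilobase), the ribosomal protein RPS2 (772) and the chaperones HSP90AB1 (659), CALR (596) and HSPA8 (577). HSP90AB1 was nearly level across the libraries, with 654 and 662 CPM per kilobase in replicates 3 and 4, and 647 and 672 in replicates 1 and 2. HMGA1, a chromatin protein of embryonic and tumour cells, reached 545 ± 117 CPM per kilobase. KISS1, whose secreted peptide was named as a metastasis suppressor, stood at 400.2 ± 83.5 and was named after its value was seen. Above all of these lay AL353644.10 at 6405 CPM per kilobase, a 57-base gene model outside the primary annotation (GENCODE v29). Its short length raises its value per kilobase. The nuclear pseudogene MTATP6P1 (575) copies mitochondrial sequence, so its level is uncertain.

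**Figure D2:**
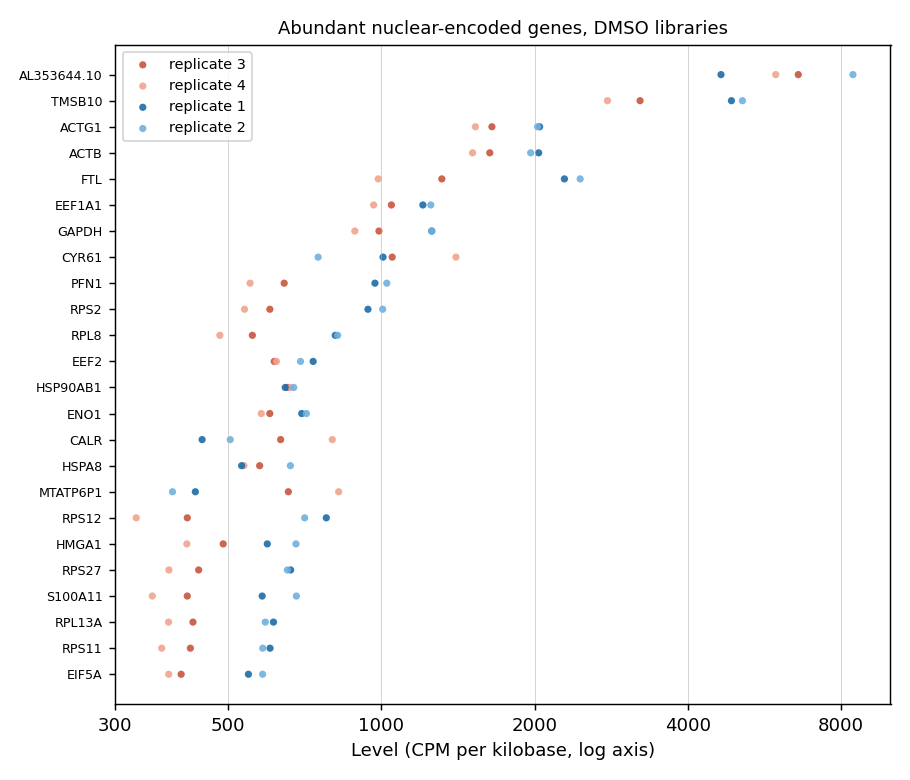
Level in CPM per kilobase (log axis) of 24 of the 25 nuclear-encoded genes with the highest means, 1 point per library, replicates 3 and 4 in red shades and replicates 1 and 2 in blue. TMSB10 at 3221 and 2779 in replicates 3 and 4 and 4869 and 5118 in replicates 1 and 2 lies apart from the actins, and most of the genes sit lower in replicates 3 and 4.

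Messages of ribosomal proteins and elongation factors are known for a 5′ terminal oligopyrimidine tract (TOP), a C at the cap followed by a run of C and T that places them under mTOR control. The stretches below run from 40 bases before the RefSeq start to base 15 of the transcript (GRCh38.p14). Capitals mark a C at base 1 followed by 4 bases each C or T, and, in the window from 40 to 21 bases upstream, the TATA box letters TATAAA on the gene's strand. The abundant translation genes EEF1A1, EEF2, RPS12, RPL13A and RPLP0 carry the TOP start, and EEF2 and RPLP0 also TATAAA. CALR and IGFBP4 are shown as abundant genes outside translation with TATAAA and no TOP start, and the receptor kinases AXL and EGFR, described below, as genes with neither.
EEF1A1 (chr6:73521018-73521072, - strand): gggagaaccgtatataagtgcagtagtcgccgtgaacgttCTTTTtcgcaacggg
EEF2 (chr19:3985449-3985503, - strand): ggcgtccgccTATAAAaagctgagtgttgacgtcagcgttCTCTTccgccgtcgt
RPS12 (chr6:132814529-132814583, + strand): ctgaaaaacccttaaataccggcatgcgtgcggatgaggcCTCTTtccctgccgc
RPL13A (chr19:49487568-49487622, + strand): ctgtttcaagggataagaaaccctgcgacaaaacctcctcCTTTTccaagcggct
RPLP0 (chr12:120201097-120201151, - strand): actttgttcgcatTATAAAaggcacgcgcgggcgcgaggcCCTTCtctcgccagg
CALR (chr19:12938569-12938623, + strand): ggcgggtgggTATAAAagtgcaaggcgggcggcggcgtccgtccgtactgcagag
IGFBP4 (chr17:40443410-40443464, + strand): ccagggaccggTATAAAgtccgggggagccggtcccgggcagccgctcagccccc
AXL (chr19:41219183-41219237, + strand): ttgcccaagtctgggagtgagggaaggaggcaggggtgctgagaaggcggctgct
EGFR (chr7:55018977-55019031, + strand): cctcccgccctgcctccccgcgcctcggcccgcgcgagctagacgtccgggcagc

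Promoters of genes on chromosome 8 were left out of the counts that follow. The TOP start was present in 44 of 68 ribosomal protein promoters with a RefSeq entry (64.7%), against 671 of 13532 promoters overall (4.96%). Among protein-coding genes at 100 CPM per kilobase or more it stood in 46 of 283 (16.3%), at 10 to 100 in 6.29% and at 1 to 10 in 4.49%. With the ribosomal protein genes left out, 16 of 236 promoters of the most abundant class held it (6.78%). TATAAA was found in 20 of the 283 promoters of the most abundant class (7.07%), in 1.27% at 10 to 100 and in 1.25% at 1 to 10 CPM per kilobase. Over all promoters TATAAA stood in 2.81%. It was also found in 64 of 813 promoters of genes at 0 counts (7.87%) and in 4.43% of 4406 promoters of genes below 1 CPM per kilobase, and no relation to level is read from it. CpG-rich windows (observed over expected CpG of at least 0.6 and at least 50% G and C) made up 82.7, 88.1 and 82.3% of the 3 classes from 1 CPM per kilobase up, from high to low. Over all promoters the CpG-rich share was 69.6%. Of the genes at 0 counts and below 1 CPM per kilobase only 74.3 and 76.0% had a promoter entry, under the 80% asked for, so the check is void for these classes and their shares describe the matched promoters alone. A match in these letters is a description and not a shown binding site.

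Ribosomal protein messages were abundant but took a smaller share where mitochondrial ones took more. The 98 genes matched by a ribosomal protein symbol were not restricted to the primary annotation. They held 3.59% of the counts on average in replicates 3 and 4 and 5.52% in replicates 1 and 2. RPS12, of the small subunit, had 415 and 329.7 CPM per kilobase in replicates 3 and 4, and 779 and 707 in replicates 1 and 2, lower in both libraries of less concentrated RNA (log2 difference -0.92 ± 0.12, edgeR adjusted p = 4.03e-05). The 37 mitochondrially encoded genes held 4.40% in replicates 3 and 4 and 2.32% in replicates 1 and 2. MT-CO1, a subunit of cytochrome c oxidase, led them with 6524 and 7233 CPM per kilobase in replicates 3 and 4, and 3407 and 3374 in replicates 1 and 2 (log2 difference 1.10 ± 0.12, edgeR adjusted p = 2.01e-05). It exceeded MT-CO3 (4699.8 on average) in all 4 libraries, and MT-CO2 (4100.2), MT-ND2 (3858) and MT-ATP6 (3809.6) followed by mean. The order below MT-CO1 changed between libraries. In replicate 1 MT-ND2 (3159) stood above MT-CO2 (3134) and MT-CO3 (3117), and only there above MT-ATP6. MT-ND5 (690.2), of complex I, and MT-ND6 (466), the mRNA of the light strand, were the lowest of the 13 mitochondrial mRNAs. The rRNA gene MT-RNR2 averaged 1037 ± 421 CPM per kilobase. Over all tested genes the median log2 difference between the pairs was −0.23 for the shortest quartile of gene lengths (57 to 2196 bases). It was 0.15 for the longest quartile (6618 to 267372 bases). The 13 mitochondrial mRNAs, from MT-ATP8 (207 bases) to MT-ND5 (1812 bases), lie in the shortest quartile. Their log2 differences ran from 0.84 (MT-ND1) to 1.33 (MT-ND6). The part of gene length in these differences was not tested.

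Housekeeping groups were expressed almost in full. Of 27 actin cytoskeleton genes 27 were expressed, with a median of 217 CPM per kilobase, of 21 glycolysis genes 20 (median 66.3), of 18 chaperones 16 (median 144) and of 14 translation factors 12 (median 108). In glycolysis GAPDH, ENO1 (648), TPI1 (412), PKM (329.6) and LDHA (262) formed the upper end in that order in all 4 libraries. LDHB, the other lactate dehydrogenase subunit (253), lay below LDHA in 3 of 4. SLC2A1, the glucose transporter GLUT1, had 138 and 183 CPM per kilobase in replicates 3 and 4, and 80.4 and 84.6 in replicates 1 and 2, a higher level in replicates 3 and 4 (log2 difference 1.04 ± 0.13, edgeR adjusted p = 4.11e-05), whereas the enzyme PGK1 had 167 and 152 in replicates 3 and 4 and 182 and 189 in replicates 1 and 2. Of the 21 glycolysis genes 3 were higher and 5 lower in replicates 3 and 4, with none lower once replicate 1 or replicate 2 was left out, and of the 27 actin genes 6 were higher and 15 lower (2 higher and 7 lower without replicate 2, 3 and 7 without replicate 1).

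Receptor tyrosine kinases, the cell-surface kinases that bind growth factors, were transcribed in part. Of 48 measured, 18 were expressed (37.5%), 30 lay below the limit and none was at 0 in all 4 libraries, with a median of 0.269 CPM per kilobase. Over all protein-coding genes 56.7% were expressed, with a median of 2.31, and these values are the background for the lists below too. AXL, a receptor for GAS6 found on mesenchymal tumour cells (chr19:41219203-41261766), stood first with 368 and 379 CPM per kilobase in replicates 3 and 4, and 319 and 298 in replicates 1 and 2. EPHA2, the ephrin-A receptor, followed with 212 and 266 CPM per kilobase in replicates 3 and 4, and 157 and 157 in replicates 1 and 2, below AXL in every library. EGFR, the epidermal growth factor receptor (chr7:55019021-55211628), had 64.4 and 75.8 in replicates 3 and 4 and 43.9 and 33.5 in replicates 1 and 2, and MET, the hepatocyte growth factor receptor, 41.6 and 48 in replicates 3 and 4 and 28.2 and 26.6 in replicates 1 and 2. AXL, EPHA2, EGFR, MET and PTK7 kept this order in all 4 libraries, while EPHB2 (18.5 ± 4.67) and FGFR1 (16.1 ± 1.66) did not separate in 1 of the 4. With 4 libraries the smallest p of an exact two-sided sign-flip test of such an order is 1 in 8.

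The EGFR family was unequal. ERBB2, the HER2 receptor without a known ligand, was expressed at 7.68 and 9.28 CPM per kilobase in replicates 3 and 4, and 5.22 and 5.89 in replicates 1 and 2, below EGFR in each library. ERBB3, the kinase-impaired partner of ERBB2, had 0.174 and 0.178 in replicates 3 and 4 and 0.0581 and 0.0913 in replicates 1 and 2, and ERBB4 6 and 6 counts in replicates 3 and 4 and 2 and 2 in replicates 1 and 2. Of their ligands HBEGF (50.04 CPM per kilobase) and TGFA (26.2), both ligands of EGFR, were the most abundant, ahead of AREG (4.39), NRG1 (4.16), EREG (3.04), BTC (0.427) and EGF itself (0.173). Lower members with a known role elsewhere were KIT (0.0243), the endothelial KDR (0.356) and PDGFRA, which had 1 count in replicate 3 and 0 in the others. DDR1 stands on several identifiers, so its reads may be divided between them and its level is uncertain. It is counted among the 30 kinases below the limit.

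**Figure D3:**
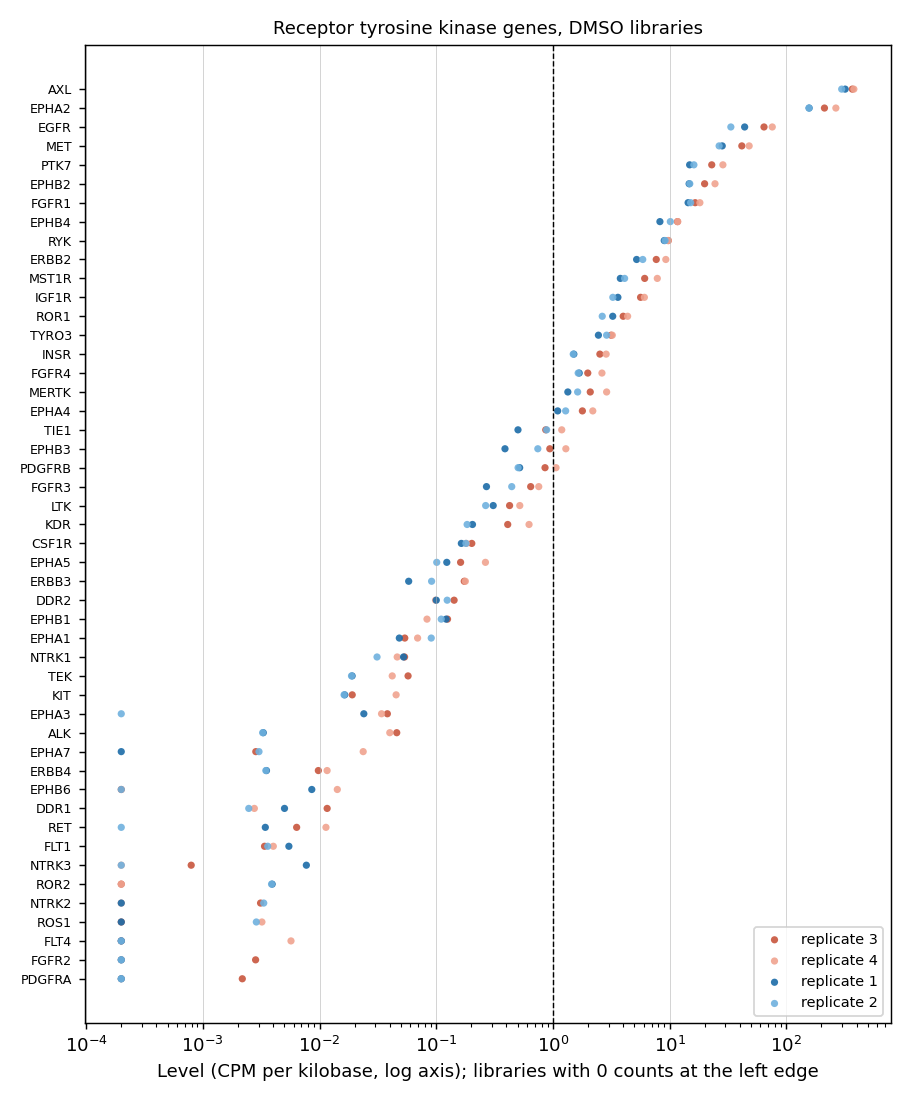
Level in CPM per kilobase (log axis) of the 48 receptor tyrosine kinase genes, ordered by mean, 1 point per DMSO library, with the dashed line at 1 and libraries with 0 counts at the left edge. The 18 expressed genes run from AXL at 341 to EPHA4 at 1.59, and replicates 3 and 4 (red shades) lie right of replicates 1 and 2 (blue) for most of the upper genes.

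Between the pairs of libraries, 26 of the 32 receptor tyrosine kinases tested were higher in replicates 3 and 4 and none was lower, where 18.8 and 15.4% of all tested genes were. Their median log2 difference was 0.74, against −0.0048 over all tested genes. The number higher was 17 without replicate 4, the lowest of the 4 fits with 1 library left out. EGFR differed by 0.93 ± 0.14 (SE; edgeR adjusted p = 9.67e-05), with an adjusted p of 0.059 without replicate 4, and MET by 0.79 ± 0.11 (edgeR adjusted p = 9.06e-05), called with each library left out in turn. ALK, far below the limit, had the largest difference, with 15 and 11 counts in replicates 3 and 4 and 1 and 1 in replicates 1 and 2 (log2 difference 3.63 ± 0.76, edgeR adjusted p = 0.00147). AXL differed by 0.35 ± 0.11 (edgeR adjusted p = 0.0221), and this call was lost without replicate 1 or without replicate 2 (adjusted p up to 0.328).

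Nuclear hormone receptors are transcription factors switched by steroids, retinoids or lipids. Of 41 measured, 20 were expressed (48.8%), with a median of 0.912 CPM per kilobase, beside 56.7% and 2.31 for all protein-coding genes. NR2F2, the orphan receptor COUP-TFII, led with 18.9 and 17.9 CPM per kilobase in replicates 3 and 4, and 21.2 and 22.9 in replicates 1 and 2, above ESRRA, the estrogen-related receptor alpha (16 ± 2.12), in all 4 libraries. The oxysterol receptor NR1H2 (15.2 ± 2.48), PPARG (13.2 ± 1.89) and PPARD (11.7 ± 1.72), receptors for fatty acids, and NR3C1, the glucocorticoid receptor (9.7 ± 0.664), were all expressed, as were VDR for vitamin D (8.72) and RARA for retinoic acid (6.44). ESR1, the estrogen receptor, was far lower. It had 11 and 12 counts in replicates 3 and 4 and 11 and 7 in replicates 1 and 2, a mean of 0.0173 CPM per kilobase. PGR, the progesterone receptor, stood higher, at 298 and 174 counts in replicates 3 and 4 and 242 and 255 in replicates 1 and 2, or 0.359 ± 0.0531 CPM per kilobase, still below the limit of 1 in each library. NR1H4, the bile acid receptor, had 0 counts in all 4. Of 33 receptors tested between the pairs, 1 was higher and 4 were lower in replicates 3 and 4, and without replicate 1 none was lower.

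Receptors for cytokines were led by a member of the tumour necrosis factor receptor family. Of 43 measured, 24 were expressed (55.8%, with a median of 2.16 CPM per kilobase), close to the 56.7% and 2.31 of all protein-coding genes. TNFRSF12A, the TWEAK receptor, had 123 and 146 CPM per kilobase in replicates 3 and 4, and 128 and 124 in replicates 1 and 2, above all others of the list in every library. TNFRSF1A, the main tumour necrosis factor receptor (51.9 ± 9.14), and IL6ST, the shared signal chain of the interleukin 6 family (50.8 ± 9.35), did not separate in 2 of 4 libraries. OSMR, the oncostatin M receptor, had 31.1 and 37.6 CPM per kilobase in replicates 3 and 4, and 18.9 and 17.6 in replicates 1 and 2, the death receptor TNFRSF10B 32.4 and 40.3 in replicates 3 and 4 and 21.2 and 21.7 in replicates 1 and 2 and CD40, which binds CD40 ligand, 25.4 and 31.5 in replicates 3 and 4 and 18.4 and 21 in replicates 1 and 2. All 3 were higher in both of replicates 3 and 4, and 21 of 37 tested cytokine receptors were higher there and 1 lower (14 to 25 higher with 1 library left out).

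Both signalling receptors for TGF-beta were expressed. TGFBR2 had 57.7 and 56.1 CPM per kilobase in replicates 3 and 4, and 52.2 and 52.2 in replicates 1 and 2 and TGFBR1 7.87 and 7.72 in replicates 3 and 4 and 5.76 and 5.72 in replicates 1 and 2. ENG, the coreceptor endoglin, stood at 55.6 and 71.3 in replicates 3 and 4 and 40.6 and 45.1 in replicates 1 and 2, so that it lay above TGFBR2 in replicate 4 and below it in the others. Of 14 receptors for TGF-beta and bone morphogenetic proteins 9 were expressed (median 4.05), among them ACVR1 (9.52) and BMPR2 (6.45). Of 12 tested, 10 were higher in replicates 3 and 4 (7 to 10 with 1 library left out).

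Among 55 G protein-coupled receptors, the seven-helix receptors of hormones and metabolites, 25 were expressed (45.5%, with a median of 0.834 CPM per kilobase). For all protein-coding genes these values were 56.7% and 2.31. ADORA2B, the low-affinity adenosine receptor, had 73.4 and 94.6 CPM per kilobase in replicates 3 and 4, and 68.7 and 68.4 in replicates 1 and 2. The adhesion receptor ADGRE5 (CD97) had 76.3 and 106 in replicates 3 and 4 and 46.5 and 50.5 in replicates 1 and 2 and thus exceeded ADORA2B in replicates 3 and 4 but not in replicates 1 and 2. F2RL1, a receptor cut open by trypsin-like proteases, averaged 48.2 ± 16.5, and the Wnt receptors FZD2 and FZD6 46.2 ± 16.7 and 33.1 ± 10.2. CXCR4, a chemokine receptor studied in breast cancer spread, was expressed at 2.54 and 3.73 CPM per kilobase in replicates 3 and 4, and 1.38 and 1.81 in replicates 1 and 2. SMO, the Hedgehog signal transducer, was listed at 0 counts. Of 43 tested, 27 were higher in replicates 3 and 4 and none was lower (20 to 28 higher with 1 library left out).

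Integrins, the paired receptors that hold cells to the matrix, comprised abundant subunits for laminin, fibronectin and collagen. Of 25 measured, 11 were expressed. ITGB1, the common beta subunit (chr10:32900319-33005792), had 271 and 320 CPM per kilobase in replicates 3 and 4, and 168 and 164 in replicates 1 and 2. ITGA3 (189.7 and 241 in replicates 3 and 4 and 123 and 121 in replicates 1 and 2) and ITGA6 (93.9 and 111 in replicates 3 and 4 and 58.3 and 60.3 in replicates 1 and 2), the laminin-binding alpha subunits, came next. ITGA5, of the fibronectin receptor (54.5), ITGB4, the laminin-receptor partner of ITGA6 (36.2), ITGAV (32.3) and the collagen receptor ITGA2 (30.4) followed, each above the next in all 4 libraries. The leukocyte integrins ITGAM (0.0239), ITGAL (0.0038) and ITGA4 (0.00277) were near 0 and ITGA8 was at 0, while ITGB2, a beta subunit of leukocytes, was expressed at 11.7 and 13.8 CPM per kilobase in replicates 3 and 4, and 9.46 and 9.0 in replicates 1 and 2. Between the pairs, 13 of 16 tested integrins were higher in replicates 3 and 4 and 1 was lower (ITGAE), with a median log2 difference of 0.96. With 1 library left out 10 to 15 were higher. ITGAE was no longer called without replicate 2 (edgeR adjusted p = 0.0535). ITGA2, the largest difference of the list, was kept in all 4 such fits (log2 difference 1.21 ± 0.13, edgeR adjusted p = 1.67e-05).

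Most genes of the mesenchymal list were expressed and most of the epithelial list were not, while keratins of simple epithelium, listed apart, were abundant. Of 36 mesenchymal genes 28 were expressed (77.8%), with a median of 21.9 CPM per kilobase, whereas of 37 epithelial genes 12 were (32.4%), with a median of 0.224. All protein-coding genes had 56.7% expressed and a median of 2.31. The lists were chosen with earlier results of these data known, so these shares depend in part on that choice. They were not tested against each other. KRT8 and KRT18, described with the keratins below, averaged 133 and 88.7 CPM per kilobase. VIM, the intermediate filament vimentin (chr10:17228259-17237593), had 214 and 212 CPM per kilobase in replicates 3 and 4, and 211 and 247 in replicates 1 and 2. CDH1, E-cadherin (chr16:68737225-68835548), had 11 and 11 counts in replicates 3 and 4 and 4 and 3 in replicates 1 and 2, or 0.0271 ± 0.0168 CPM per kilobase. EPCAM, the epithelial adhesion molecule, was low but expressed, at 3.81 and 3.74 CPM per kilobase in replicates 3 and 4, and 3.11 and 2.73 in replicates 1 and 2.

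Abundant members of the mesenchymal list were LGALS1, which encodes galectin 1 (477 ± 80.6 CPM per kilobase), MSN, which links actin to the membrane (396 ± 8.11), AXL, VIM and CAV1, the coat protein of caveolae (172 ± 9.65). CD44, the hyaluronan receptor, had 135 and 167 CPM per kilobase in replicates 3 and 4, and 91.5 and 95.3 in replicates 1 and 2. Matrix genes were present from the basement membrane collagens COL4A2 (129.6 ± 53.7) and COL4A1 (49 ± 20.2) to FN1, fibronectin, at 66.6 and 83.2 in replicates 3 and 4 and 33.3 and 27.8 in replicates 1 and 2. FN1 did not overlap between the pairs and had the largest log2 difference of the list, 1.37 ± 0.14 (edgeR adjusted p = 1.48e-05). Of the factors that repress epithelial genes, SNAI2 (29.7 ± 5.86) and ZEB1 (8.23 ± 0.574) were expressed and SNAI1 stood at 1.87 ± 0.242, but ZEB2 averaged 0.0674 CPM per kilobase and TWIST1 had 1 count in replicate 2 and 0 in the others. CDH2, N-cadherin, had 12 and 14 counts in replicates 3 and 4 and 10 and 9 in replicates 1 and 2, whereas CDH11, a mesenchymal cadherin, stood at 27 and 29.7 CPM per kilobase in replicates 3 and 4, and 18.8 and 18.8 in replicates 1 and 2. Genes of contractile muscle-like cells were low, ACTA2 at 0.232 and CNN1 at 0.21. Of 33 tested, 15 mesenchymal genes were higher and 5 lower in replicates 3 and 4, with 2 lower once replicate 1 was left out.

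**Figure D4:**
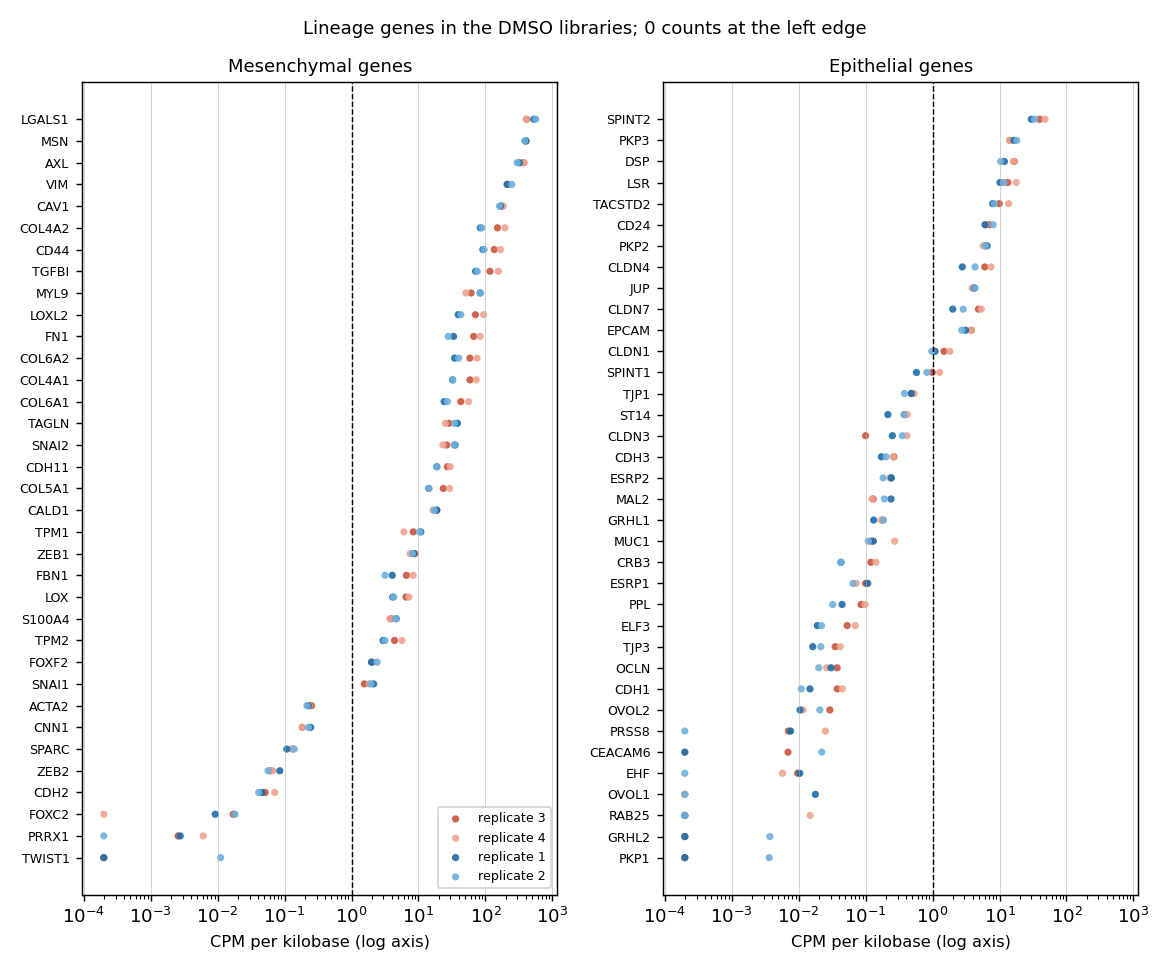
Level in CPM per kilobase (log axis) of 35 mesenchymal genes (left panel) and 36 epithelial genes (right panel), ordered by mean within each panel, 1 point per DMSO library, with the dashed line at 1 and 0 counts at the left edge. In the mesenchymal panel 27 genes lie right of the line in all 4 libraries, in the epithelial panel 11.

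The epithelial genes that were expressed are mostly those of junction plaques and the cell surface. SPINT2, a membrane-bound protease inhibitor, had 39.8 and 47.7 CPM per kilobase in replicates 3 and 4, and 29.8 and 33.5 in replicates 1 and 2. The desmosomal genes PKP3 (15.7), DSP (13.7) and PKP2 (6.15) and plakoglobin, JUP (4.16), were all expressed. The claudins, which seal tight junctions, were unequal: CLDN4 had 6.03 and 7.44 CPM per kilobase in replicates 3 and 4, and 2.78 and 4.31 in replicates 1 and 2 and CLDN7 4.85 and 5.33 in replicates 3 and 4 and 2.0 and 2.86 in replicates 1 and 2, while CLDN3 had 6 and 21 counts in replicates 3 and 4 and 14 and 20 in replicates 1 and 2, a mean of 0.28 CPM per kilobase. CLDN1 fell just outside the limit, at 1.48 and 1.82 in replicates 3 and 4 and 1.09 and 0.974 in replicates 1 and 2. The regulators of epithelial identity lay near 0, with GRHL2 at 1 count in 1 library, ESRP1, an epithelial splicing factor, at 0.0863 and OVOL2 at 0.018 CPM per kilobase. Of 26 tested, 12 were higher in replicates 3 and 4 and none was lower, and without replicate 4 or replicate 1 the number higher was 4 and 8. TJP1 and OCLN stand on several identifiers and are uncertain.

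Keratins, the filaments of epithelia, were led by the pair of simple epithelium. KRT8 had 126 and 123 CPM per kilobase in replicates 3 and 4, and 135 and 148 in replicates 1 and 2. Its partner KRT18 had 80.2 and 73.7 in replicates 3 and 4 and 90.7 and 110.1 in replicates 1 and 2, below KRT8 in every library. KRT7 (74.4 ± 5.41), the hair keratin KRT81 (66.3 ± 11.2), KRT80 (16.7 ± 1.43) and KRT10 (8.64 ± 2.82) came next. The basal keratins KRT5 (1 and 1 counts in replicates 3 and 4 and 3 and 2 in replicates 1 and 2) and KRT14 (0 and 1 counts in replicates 3 and 4 and 1 and 0 in replicates 1 and 2) were close to 0, KRT17 was at 0.423 CPM per kilobase, KRT19 at 0.058, and KRT6B was listed at 0 counts. KRT86 (1.53) resembles KRT81 closely in sequence, so reads may be shared between them. In all, 7 of 17 measured keratins, out of 25 listed, were expressed. Of 8 tested, 3 were lower in replicates 3 and 4 and none was higher. Not all 3 of these calls held with 1 library left out.

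Both breast lineages were transcribed in part. Of 23 luminal genes, those of the milk-facing layer, 9 were expressed: besides KRT8 and KRT18 these were MLPH (9.54 CPM per kilobase), ERBB2, the transcription factor GATA3 at 3.53 and 3.51 in replicates 3 and 4 and 4.38 and 4.14 in replicates 1 and 2, CA12 (2.7), BCL2 (2.53), SPDEF (1.81) and NAT1 (1.12). FOXA1, the pioneer factor of estrogen receptor binding, had 65 and 35 counts in replicates 3 and 4 and 25 and 48 in replicates 1 and 2, a mean of 0.246 CPM per kilobase. Of 23 basal genes, those of the outer layer, 8 were expressed, among them CAV1, LAMB3, a chain of laminin 332 (117 ± 36.8), ITGA6, EGFR, ITGB4, COL17A1 (3.64) and FOXC1 (2.71). TP63, the master regulator of basal cells, had 3 and 2 counts in replicates 3 and 4 and 2 and 5 in replicates 1 and 2, and MIA and SFRP1 were at 0. The medians were 0.359 and 0.279 CPM per kilobase for the luminal and the basal list.

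Markers of other cell types were low, with a few exceptions. Of 18 blood cell markers 1 was expressed, CD8A at 1.17 and 1.01 CPM per kilobase in replicates 3 and 4, and 1.52 and 1.5 in replicates 1 and 2, while CD3E and GNLY were among those at 0 counts, and the summed level of the list was 3.33 and 3.09 CPM per kilobase in replicates 3 and 4 and 3.40 and 2.85 in replicates 1 and 2. No hepatocyte marker of 9 was expressed. Of 12 fibroblast markers S100A4 (4.22) and COL1A1 (1.4) were, while COL1A2 (0.00471), COL3A1 (0.0102) and FAP (0.00090) were near 0 and POSTN was at 0. Among 6 melanocyte markers MITF was expressed (1.77) and S100B was at 0. Among 9 neural markers ENO2, an enolase, stood at 39.9 and 36.3 CPM per kilobase in replicates 3 and 4, and 38.7 and 38.6 in replicates 1 and 2 and NES, nestin, at 3.5.

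Of 12 endothelial markers 3 were expressed (25%; median 0.219 CPM per kilobase). ESAM, an adhesion molecule of endothelial cells and platelets, had 73.7 and 95.3 CPM per kilobase in replicates 3 and 4, and 53.2 and 59.9 in replicates 1 and 2, ROBO4 averaged 17.1 ± 4.71 and EGFL7 10.7 ± 2.51. The other 9 lay below the limit, from TIE1 (0.861), KDR (0.356), CDH5 (0.244) and PECAM1 (0.195) to VWF (0.0365), TEK (0.0343) and ERG (0.000699). The summed level of the 12 markers was 104 and 135 CPM per kilobase in replicates 3 and 4 and 75.5 and 85.3 in replicates 1 and 2, and 6 of 8 tested were higher in replicates 3 and 4. The part of any other cell type in these values was not tested.

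Of 65 secreted factors measured, 44 were expressed (67.7%; median 5.95 CPM per kilobase), beside 56.7% and 2.31 for all protein-coding genes. CYR61 was highest, ahead of IGFBP4, which binds insulin-like growth factors (459.7 ± 33), CTGF, also called CCN2 (226 ± 64.5), and THBS1, thrombospondin 1 (187 ± 64.2). CYR61, CTGF and THBS1, all known YAP targets, were each lowest in replicate 2: CTGF had 217 and 301 CPM per kilobase in replicates 3 and 4, and 241 and 145 in replicates 1 and 2 and THBS1 200.2 and 268 in replicates 3 and 4 and 162 and 117 in replicates 1 and 2. NT5E, the enzyme CD73 that makes adenosine from AMP, had 181 and 222 in replicates 3 and 4 and 118 and 121 in replicates 1 and 2. Among cytokines the neutrophil attractant CXCL1 stood at 82.3 and 111 in replicates 3 and 4 and 78.5 and 74.4 in replicates 1 and 2, CSF3, the granulocyte colony-stimulating factor, at 63.7 and 81.9 in replicates 3 and 4 and 42.3 and 53.2 in replicates 1 and 2, IL11 at 58.1 and 56.8 in replicates 3 and 4 and 56.8 and 69 in replicates 1 and 2 and CXCL8 at 43.3 and 63.8 CPM per kilobase in replicates 3 and 4, and 42.2 and 35.4 in replicates 1 and 2. CSF2 (44.1), LIF (39.7) and the inhibitor of Wnt signalling DKK1 (45.3) were near them, whereas IL6 (3.38) and IL1B (1.54) were low and CCL2 had 0 and 1 counts in replicates 3 and 4 and 1 and 1 in replicates 1 and 2. TGFB1 (35.7) and TGFB2 (42.8) were both expressed, with TGFB3 at 0.141. CXCL6 was listed at 0. Of 58 tested, 26 were higher and 3 lower in replicates 3 and 4, with 17 higher once replicate 4 was left out.

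The proteolytic genes included those of plasmin formation and of matrix cleavage. PLAU, urokinase, which turns plasminogen into plasmin, had 136 and 196 CPM per kilobase in replicates 3 and 4, and 82.4 and 88.1 in replicates 1 and 2. The urokinase receptor PLAUR had 79.5 and 106 CPM per kilobase in replicates 3 and 4, and 64.4 and 63.3 in replicates 1 and 2. MMP14, a membrane-bound matrix metalloproteinase (chr14:22836557-22849027), had 230.1 and 303 in replicates 3 and 4 and 137 and 155 in replicates 1 and 2. The gelatinases were low, MMP9 at 0.935 and 1.2 in replicates 3 and 4 and 0.568 and 0.58 in replicates 1 and 2 and MMP2 with 1 count in replicate 1 and 0 in the others. F3, tissue factor, which starts blood clotting, averaged 116 ± 28.3 and TIMP1, an inhibitor of metalloproteinases, 80.3 ± 18.9. In all, 24 of 36 were expressed (median 5.73), and of 32 tested 22 were higher in replicates 3 and 4 and none was lower (19 to 24 higher with 1 library left out). CTSD, the lysosomal cathepsin D (112), has 41.7% of its exon bases under another gene of the same strand.

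Of the genes known to be altered in this line, BRAF, a kinase of the MAP kinase pathway, had 2.71 and 2.13 CPM per kilobase in replicates 3 and 4, and 2.71 and 2.31 in replicates 1 and 2. NF2, the merlin tumour suppressor, was nearly constant at 2.76 ± 0.0102, and PDGFRA was near 0 as above. The counts say nothing of the alleles.

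Cancer-testis genes are silent in most adult tissues outside the germ line. Of 24 measured, 7 were expressed and 4 (CTAG1B, PAGE5, CTCFL and DAZL) were at 0. The highest, KIF2C (45.4 CPM per kilobase), PBK (22.5) and TTK (18.2), are also mitosis genes of any dividing cell. Those more particular to the germ line were CT83 at 10.8 and 13.3 in replicates 3 and 4 and 9.72 and 8.16 in replicates 1 and 2, MAGEA12 at 8.7 and 8.38 in replicates 3 and 4 and 9.35 and 10.6 in replicates 1 and 2, XAGE1A at 5.76 and 4.59 in replicates 3 and 4 and 10.6 and 9.0 in replicates 1 and 2 and LY6K at 3.76. MAGEA3 (0.31) and MAGEA6 (0.436) were low and nearly identical in sequence, as are XAGE1A and XAGE1B, so their shares are uncertain.

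Gene families of other tissues lay mostly below the limit. Their sizes here count only members in the table, which holds genes with at least 1 count over the 16 libraries. Members without any count are therefore missing from them. None of 70 measured olfactory receptors was expressed and 33 were at 0, with a highest mean of 0.527 CPM per kilobase (OR2AG2). None of 14 keratin-associated proteins, 7 taste receptors or 5 beta defensins reached 1 CPM per kilobase in all 4 libraries. Of 30 measured HOX genes, the ordered patterning genes of the body axis, 2 were expressed, both in the HOXB cluster on chromosome 17. HOXB9 had 15.7 and 13.2 CPM per kilobase in replicates 3 and 4, and 19.6 and 20.04 in replicates 1 and 2, and HOXB3 1.5 and 1.48 in replicates 3 and 4 and 1.09 and 1.24 in replicates 1 and 2. HOXB7 just missed the limit at 1.08 and 0.792 in replicates 3 and 4 and 1.57 and 1.23 in replicates 1 and 2. Summed over the cluster, HOXB reached 21.1 and 18.4 CPM per kilobase in replicates 3 and 4 and 24.2 and 24.4 in replicates 1 and 2, HOXC 1.45 and 1.26 against 1.30 and 1.70, and HOXD 0.758 and 0.655 against 0.660 and 0.806. In HOXA 4 of 5 measured genes were at 0, and only HOXA13 had counts (0.0649 CPM per kilobase). Histone genes of the replication-dependent class, whose messages lack a poly(A) tail, held 0.0038% of the counts on average, with 8 of 61 expressed.

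Some low values went with overlapping gene models. EEF1G, a subunit of the elongation factor complex that every cell needs, was listed at 0 counts in all 4 libraries, and 99.9% of its exon bases lie under another gene of the same strand in GENCODE v29. Among protein-coding genes with over 90% of their exon bases so covered, and under 5% covered on the opposite strand, 4 of 131 were expressed (3.05%) and 50 were at 0 (38.2%), with a median of 0.00341 CPM per kilobase. With no such overlap 6555 of 11643 were expressed (56.3%), with a median of 2.39. At 50 to 90% coverage 44 were expressed (19.0%), and at 25 to 50% 120 of 286 (42.0%). On the opposite strand, 50 to 90% coverage left 49 of 110 expressed (44.5%), against 54.7% of 9804 with none. EIF4A1, a helicase of translation initiation, stood at 2.28 CPM per kilobase with 48.6% of its exon bases covered, the macrophage marker CD68 at 0.0239 with 81.7%, and IGF2 at 0.0711 with 73.7%. The part of the overlap in these values was not tested. Of 5428 processed pseudogenes 563 met the limit, and since they copy spliced messages their reads may come from the parent genes.

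Among called genes above a limit on level, the largest increases in replicates 3 and 4 included a lipid transporter and a matrix protease. The largest decreases included ferritin and a ribosomal protein. Called genes below that limit reached larger differences, as described for ALK. Among called genes with an average log2 CPM of at least 3, ABCA1, which exports cholesterol, had the largest increase, with 2.95 and 3.41 CPM per kilobase in replicates 3 and 4, and 1.13 and 1.1 in replicates 1 and 2 (log2 difference 1.59 ± 0.13, edgeR adjusted p = 4.11e-06). ADAMTS15, a secreted protease of the matrix, had 4.23 and 5.08 in replicates 3 and 4 and 1.64 and 2.1 in replicates 1 and 2 (log2 difference 1.39 ± 0.15, edgeR adjusted p = 1.77e-05). CTD-2303H24.2, RP11-104N10.2 and RP11-45M22.2, which have no described product, completed the 5 largest increases. The 5 largest decreases were FTL, RPL12 of the large ribosomal subunit (216 and 160 CPM per kilobase in replicates 3 and 4, and 391 and 380.2 in replicates 1 and 2; log2 difference -0.96 ± 0.12, edgeR adjusted p = 4.25e-05) and the processed pseudogenes RP11-864N7.2, RPLP0P6 and CTB-63M22.1. The call of RPLP0P6, a copy of RPLP0, was lost without replicate 3 or without replicate 4 (adjusted p up to 0.359). Among the listed or named genes 298 were called between the pairs, and not all of these calls held with 1 library left out. Some of these genes were named for this difference, so their number is not set against the 34.2% called over all tested genes. Against a null of 1.5-fold, 138 of the 17158 genes were called, 137 of them higher in replicates 3 and 4.

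**Figure D5:**
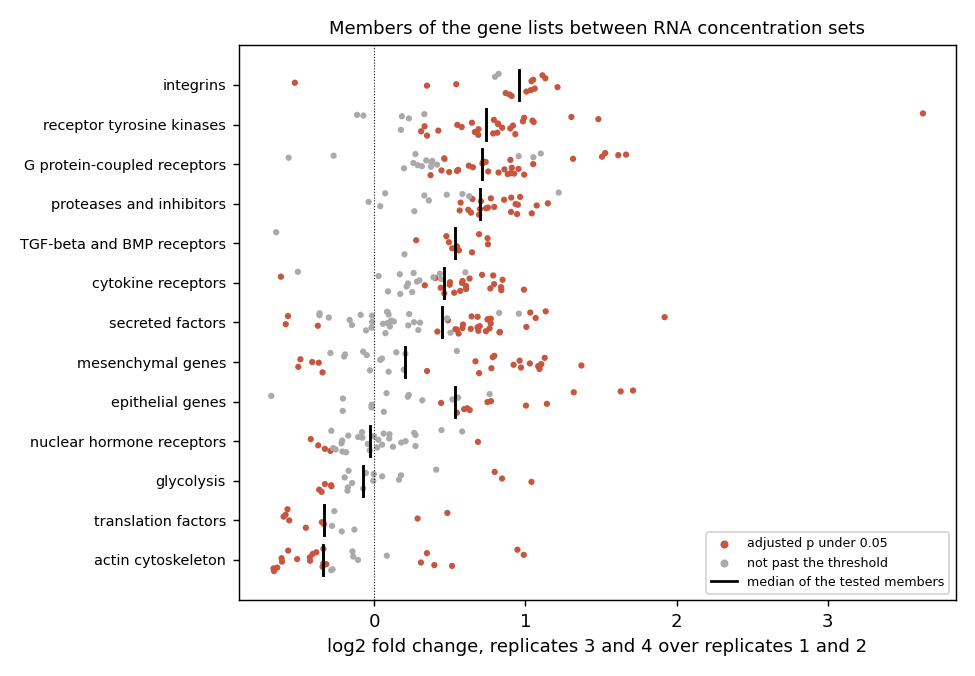
Log2 difference of each tested list member (horizontal axis), replicates 3 and 4 over replicates 1 and 2, 1 row per list, red for an edgeR adjusted p under 0.05, grey otherwise, and a black bar at the median of the tested members. Medians run from 0.96 for the integrins and 0.74 for the receptor tyrosine kinases to −0.33 for the translation factors and the actin cytoskeleton, with −0.03 for the nuclear receptors.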

How the data were processed

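RNA of MDA-MB-231 cells was sequenced in 16 libraries, of which the 4 DMSO ones are used, except in 1 alternative fit with all 16. The authors deposited a table of integer read counts per gene with gene lengths, and the submitters' processing notes name STAR 2.7.5b, featureCounts, Subread 2.0.1 and hg38. The deposited lengths equal the GENCODE v29 exon lengths for 90.2% of 36220 matched genes. The table holds genes with at least 1 count over the 16 libraries, and other genes were not analysed here. Their second deposited table, on a log2 scale, was not used. Rows on 1644 identifiers outside the primary annotation were kept, and their levels are uncertain where copies share reads.

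CPM was computed from the deposited counts over all rows (library totals 39667328 to 47155036, so 1 count is worth 0.0212 to 0.0252 CPM) and divided by the length in kilobases. The pairs of libraries were compared with edgeR 4.0.16 in R 4.3.3: TMM factors, a filter on low counts with a minimum count of 10, the robust quasi-likelihood test, and Benjamini-Hochberg adjustment over 17158 genes at 0.05. The script was checked on simulated data. The alternatives were DESeq2 1.42.0, other scalings, filters, cutoffs and left-out libraries. No replicate pair agreed within counting noise (χ² per gene of at least 12.9), so none was counted as a copy. Exon overlaps come from GENCODE v29. Promoter windows (250 bases before to 50 after the start) come from RefSeq, GRCh38.p14, for 13532 protein-coding genes outside chromosome 8. Python 3.11.15, pandas 2.3.3 and matplotlib 3.10.9 were used.

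Members and lists were chosen with earlier results of these data known. Of 653 listed symbols, 603 were measured. The share expressed of a list is over its measured members, for instance 17 of 25 keratins, 24 of 34 cancer-testis genes and 18 of 24 blood cell markers. The genes named are the 25 most abundant nuclear ones, the mitochondrial mRNAs, up to 8 highest members of each list and those at 0. Fixed defining markers and HOX genes are named too. So are the 5 largest differences between the pairs in each direction, among called genes with an average log2 CPM of at least 3. Others were named after their values were seen. Some genes the rule names are not reported here.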

Additional observations from a re-analysis of the deposited data

Results flagged for a closer look

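Of 191 sets of 4 library values, 3 held 1 library apart from the other 3 by Dixon's criterion, where chance gives about 1 in 20, or 9.55. MT-TH, the mitochondrial histidine tRNA, had 2.65 CPM per kilobase in replicate 1 against 8.51 to 8.77 in the others. VIM had 247 CPM per kilobase in replicate 2 against 211 to 214 in the others. NF2 had 2.77 CPM per kilobase in replicate 3 against 2.75 in each of the others.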

How the results depend on the processing

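The number of genes differing between the pairs of libraries was 5869 of 17158 tested (3229 higher and 2640 lower in replicates 3 and 4). With all 16 libraries fitted it was 12508 of 17991 tested (6512 and 5996). That fit had terms for treatment and for replicates 3 and 4 against 1 and 2 of every treatment. The labelled RNA concentrations of these pairs lay closer together with paclitaxel than with DMSO, so its term is not the DMSO contrast. Against a null of 1.5-fold in the DMSO libraries the number was 138 (137 and 1). With 1 library left out it ran from 3630 to 6427, with 2185 to 3309 higher and 1334 to 3118 lower, and in these fits 1 pair has a lone library that is assumed to vary like the others. The DESeq2 test gave 5029 (2423 and 2606), its size factors in edgeR 6007 (3089 and 2918), and no filter on low counts 5946 (3161 and 2785). Of 298 called listed or named genes 261 were called by DESeq2, and none changed direction in any setting. The same share over all called genes is not given here. Genes at 0 counts numbered 9964 in replicates 1 and 2 alone, against 6382 in all 4. Small marker lists moved with the limit: expressed blood cell markers numbered 2 by TPM and 0 at a limit of 2 CPM per kilobase (1 as reported), fibroblast markers 4 by TPM, 4 at 0.5 and 1 at 2 (2 as reported), melanocyte markers 2 by TPM and 0 at 2 (1 as reported), and neural markers 1 at 2 (2 as reported). With mitochondrial genes left out, the 10 most abundant genes held 4.18% and the 100 most abundant 16.9%. Levels of named genes moved by −1.50 to 4.60% under TMM scaling, by −2.13 to 3.44% under DESeq2 size factors and by 2.44 to 4.95% with mitochondrial genes left out of the total. The mean over fewer libraries moved by −100 to 100%, with −100% where all counts lay in the libraries left out. No paired analysis was possible because the libraries described belong to 1 treatment group.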
